A study of Mus musculus with 7 samples.

Results

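The genes described here carry the adrenocorticotropic hormone (ACTH) signal from the surface of the adrenocortical cell to protein kinase A (PKA). They are the ACTH receptor Mc2r, its accessory proteins Mrap and Mrap2, the stimulatory G protein alpha subunit gene Gnas, the PKA catalytic subunits Prkaca and Prkacb, and the PKA regulatory subunits Prkar1a, Prkar1b, Prkar2a and Prkar2b. They were chosen by symbol, as probe sets annotated with exactly 1 of these names, and all 10 genes were found, on 11 probe sets out of 23521 with a single symbol. Prkaca has a pair of probe sets and every other gene has 1. Total RNA of whole adrenal glands was hybridised to 1-colour arrays, and all the mice were females 2 months old. The wild-type group (WT, n = 3) consisted of littermates of the other group, which carried sf1:Cre together with floxed Ezh2 on each allele (Ezh2 Fl/Fl, called KO, n = 4). The labels give an uncontrolled, mixed background, mostly C57BL/6 and SV129, for all 7 mice, and do not say whether the WT mice carried sf1:Cre or floxed alleles. Steroidogenic factor 1 (sf1, gene Nr5a1) is active in steroidogenic cells of the adrenal cortex, and also in gonads, in pituitary gonadotropes and in the ventromedial hypothalamus, so the Cre is not limited to the gland studied.

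ACTH from the pituitary binds MC2R, a receptor that reaches the surface of the cell and binds its ligand only with the help of MRAP. The active receptor couples through Gs-alpha to adenylyl cyclases, and the cyclic AMP they make binds the regulatory subunits of PKA and releases its catalytic subunits. In the adrenal cortex PKA drives steroid synthesis both by phosphorylating existing proteins and by raising transcription of steroidogenic genes, and inactivating mutations of human PRKAR1A are known to cause nodular adrenal disease with cortisol excess. Ezh2 encodes the methyltransferase of Polycomb repressive complex 2, which places the repressive mark H3K27me3, often at CpG-rich promoters. The comparison of KO with WT asks which of these transcripts differ in the gland when Ezh2 is deleted under sf1:Cre.

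Because the data bear on transcripts of Gnas and Prkar1b, promoter windows of these genes are shown first, with the window of Prkar1a, the partner isoform of Prkar1b, that holds a full cyclic AMP response element. The windows are from RefSeq on the mouse assembly GRCm38.p6 and run from 250 bases before to 50 after an annotated transcription start, 5′ to 3′ on the strand of the gene. Of the 10 genes, 8 have entries, with 24 windows in all. Capitals mark TGACG, the core of the element TGACGTCA, and AAGGTCA, a site of the kind bound by steroidogenic factor 1, each searched on both strands. A full element holds overlapping cores on the opposite strands. The first Gnas window is the most upstream annotated start (chr2:174284070-174284369, plus strand), from which the gene makes transcripts other than that of Gs-alpha, and the second is the most downstream one (chr2:174329756-174330055, plus strand). The Prkar1b window is its most upstream start (chr5:139150654-139150953, minus strand), and the Prkar1a window is the fifth of its 6 starts (chr11:109650699-109650998, plus strand).
Gnas, most upstream start: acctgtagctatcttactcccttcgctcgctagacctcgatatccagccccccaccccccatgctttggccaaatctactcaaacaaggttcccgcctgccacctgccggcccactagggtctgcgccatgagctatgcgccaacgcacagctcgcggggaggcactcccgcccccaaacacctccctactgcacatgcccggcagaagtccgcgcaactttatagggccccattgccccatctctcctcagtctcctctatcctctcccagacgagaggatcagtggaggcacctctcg
Gnas, most downstream start: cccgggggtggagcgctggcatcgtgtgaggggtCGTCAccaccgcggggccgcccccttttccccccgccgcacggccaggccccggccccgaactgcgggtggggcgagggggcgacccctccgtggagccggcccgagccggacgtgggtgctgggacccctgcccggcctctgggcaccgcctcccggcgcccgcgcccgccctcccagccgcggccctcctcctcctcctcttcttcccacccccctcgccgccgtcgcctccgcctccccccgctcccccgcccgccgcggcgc
Prkar1b, most upstream start: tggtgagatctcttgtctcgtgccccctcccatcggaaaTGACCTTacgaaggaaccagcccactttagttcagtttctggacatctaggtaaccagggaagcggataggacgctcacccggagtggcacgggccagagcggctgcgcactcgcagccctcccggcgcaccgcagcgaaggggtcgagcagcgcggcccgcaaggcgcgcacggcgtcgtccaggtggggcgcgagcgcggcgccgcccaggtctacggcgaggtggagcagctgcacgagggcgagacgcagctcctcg
Prkar1a, start 5 from upstream: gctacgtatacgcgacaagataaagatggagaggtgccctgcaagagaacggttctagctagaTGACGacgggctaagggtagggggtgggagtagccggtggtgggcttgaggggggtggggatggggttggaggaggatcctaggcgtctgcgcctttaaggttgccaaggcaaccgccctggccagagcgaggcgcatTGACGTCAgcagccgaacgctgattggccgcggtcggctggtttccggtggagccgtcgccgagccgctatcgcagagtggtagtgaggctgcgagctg

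The most upstream Gnas window holds none of the searched motifs and 16 CpG dinucleotides, and the most downstream one holds 1 core and 40 CpGs. The Prkar1b window holds 1 AAGGTCA site and 35 CpGs. The Prkar1a window holds the full element TGACGTCA, which 1.79% of all 32851 promoter windows of the same length contain, 3 cores in all and 25 CpGs. Over all windows the median was 7 CpGs, 20.8% held a core and 4.72% an AAGGTCA site. Of the 24 windows of these genes, 17 had more CpGs than that median, 10 held a core, 2 the full element and 2 an AAGGTCA site. Some windows of Gnas and of Prkar1a overlap and share their cores, so these counts are not of separate sequences. The full element is found only in 2 overlapping Prkar1a windows among the 24, and the AAGGTCA sites lie in 1 window each of Prkar1b and Mrap2. These matches describe letters in the windows, and no source used here says which start a probe set reports on.

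The deposited values are log2 expression values from RMA, a method that subtracts background, brings all arrays to one distribution and combines the probes of a set. The array medians lay between 5.32 and 5.38 over 41345 probe sets. A value of one probe set cannot be set against that of another as an amount of RNA, so no order of levels among the genes is given. Ezh2 was at 7.08 on each WT array and at 6.86, 7.04, 7.10 and 7.15 on the KO arrays (log2 change -0.04, SE 0.07, adjusted p = 0.816 by limma), and since no source used here gives the exons its probe set covers, this checks no label. Both main tissues of the gland were present on every array, with values of 12.8 or more for the cortical cholesterol carrier Star and of 10.7 or more for the chromaffin enzyme Th. A log2 change is KO minus WT throughout, its standard error (SE) comes from limma, and p-values were adjusted by the Benjamini-Hochberg method over all 22180 genes tested, with 1 probe set a gene, and called under 0.05.

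Of the 10 genes, Gnas and Prkar1b rose in KO glands and no other gene passed the test. Over all genes tested, 8.69% were called in either direction and 5.14% were called higher. When only the 11090 genes at or above the median level were fitted, 1174 were called higher and 1031 lower. That fit held 9 of the 10 genes and called 3 of them. Every KO array was above every WT array for 4 of the 10 genes, Mc2r, Gnas, Prkacb and Prkar1b, and for 10.3% of all genes, and the arrays separated in either direction for the same 4 genes and for 20.2% of all genes. An unadjusted p under 0.05 was found for 5 of the 10 genes (these 4 and Prkaca) and for 5063 of the 22180. The median log2 change was 0.06 over the 10 genes and 0.0004 over all genes. The calls did not hold under every omission of an array. Neither Gnas nor Prkar1b was called without WT replicate 2 or without WT replicate 3, Prkar1b alone was lost without KO replicate 3, and without KO replicate 2 the called genes were Gnas and Prkacb.

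**Figure D1:**
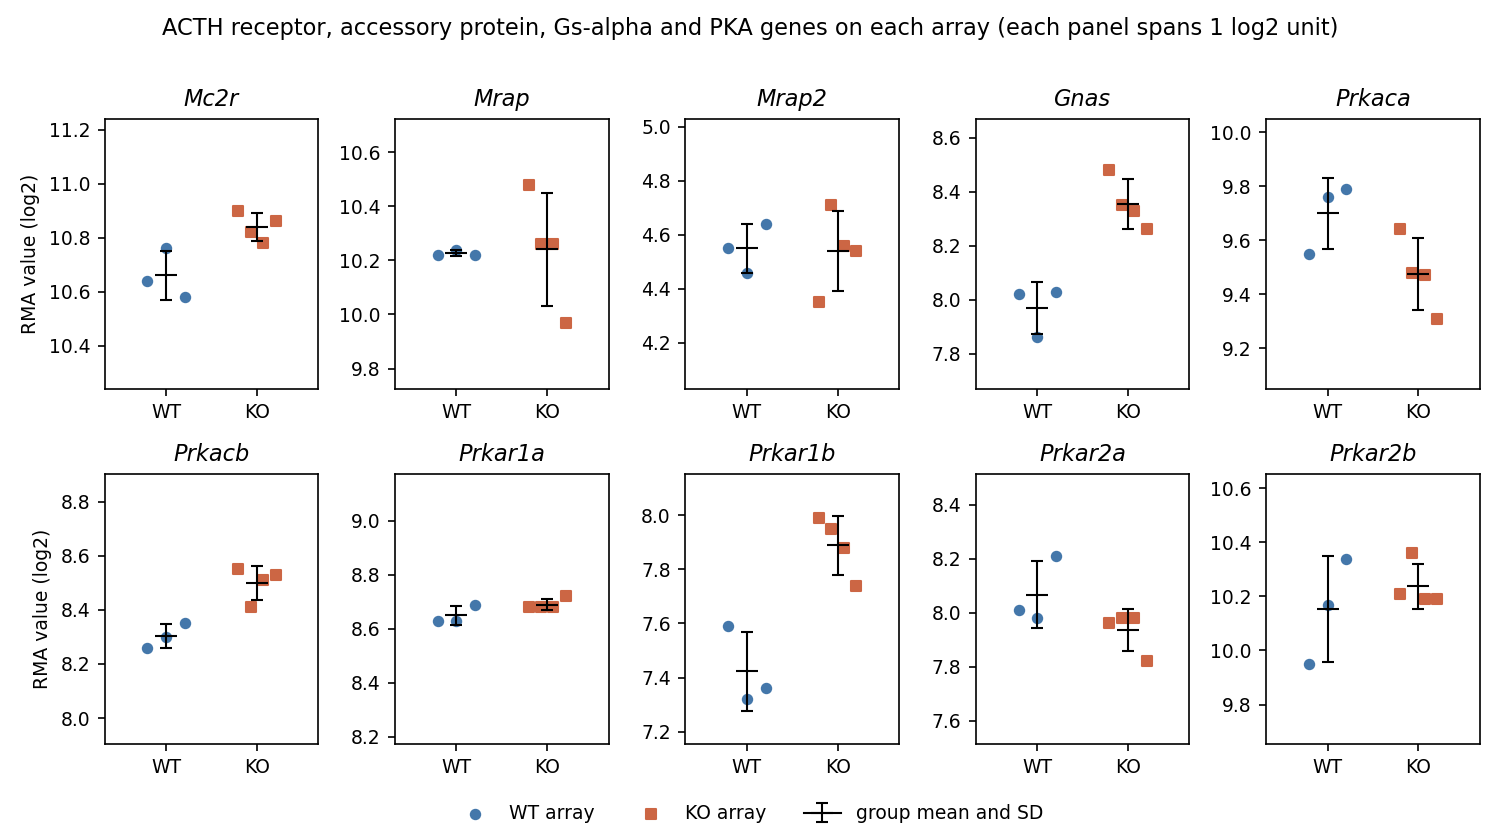
RMA values (log2) of the 10 genes on the 3 WT arrays (circles) and 4 KO arrays (squares), with the group mean and SD; every panel spans 1 log2 unit around its own centre. The KO arrays lie above all WT arrays for Mc2r, Gnas, Prkacb and Prkar1b, and the groups overlap for the other genes.

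At the level of the receptor, Mc2r, the G protein coupled receptor for ACTH, was at 10.64, 10.76 and 10.58 on the WT arrays and at 10.90, 10.82, 10.78 and 10.86 on the KO arrays. Each KO array was above each WT array, with KO replicate 3 and WT replicate 2 close together. WT averaged 10.7 ± 0.09 (SD, n = 3), against 10.8 ± 0.05 for KO (SD, n = 4). The log2 change was 0.18 (SE 0.06, 95% interval 0.05 to 0.31), or 1.13-fold, and it did not pass the test (adjusted p = 0.108 by limma). Mc2r was called in none of 17 alternative fits, whose adjusted p ranged from 0.0679 to 0.402. Since whole glands were measured, a change in the number of cells of a type and a change in RNA per cell cannot be told apart. This holds here and in every comparison that follows.

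Mrap, the accessory protein that MC2R needs to reach the cell surface, was at 10.22, 10.24 and 10.22 on the WT arrays and at 10.48, 10.26, 10.26 and 9.97 on the KO arrays. The WT arrays lay close together, and the KO arrays lay on either side of them, with KO replicate 1 highest and KO replicate 4 lowest. The KO SD of 0.21 (n = 4) stood against a WT SD of 0.01 (n = 3). The log2 change of Mrap was 0.01 (SE 0.11, 95% interval -0.25 to 0.27, adjusted p = 0.960 by limma). Mrap is also expressed in fat cells. The mean of 10 measured adipocyte markers was 6.83 on KO replicate 1, the lowest of all arrays, where Mrap was highest. It was 7.56 on KO replicate 4, where Mrap was lowest, and 8.42 and 8.31 on the other KO arrays. The WT values were 8.01, 9.19 and 9.04. With the adipocyte mean as a covariate the log2 change of Mrap was -0.04 (adjusted p = 0.935 by limma). The part of fat cells in the Mrap values was not tested.

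Mrap2, a relative of Mrap that acts on several melanocortin receptors and is known for its part in energy balance through MC4R, was at 4.55, 4.46 and 4.64 in WT and at 4.35, 4.71, 4.56 and 4.54 in KO. The groups overlapped, and KO held both the highest and the lowest of the 7 values. The log2 change was -0.01 (SE 0.09, 95% interval -0.22 to 0.20, adjusted p = 0.961 by limma).

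None of the other melanocortin receptors, Mc1r, Mc3r, Mc4r and Mc5r, was called. Mc5r, which acts in exocrine glands, was at 5.27, 6.77 and 5.73 in WT and at 5.02, 5.61, 5.36 and 5.11 in KO (log2 change -0.65, adjusted p = 0.312 by limma). WT replicate 2 was the highest of the 7 arrays, and the groups overlapped. Mc1r, Mc3r and Mc4r had log2 changes of -0.004, 0.02 and 0.05.

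Gnas, which encodes the stimulatory alpha subunit that couples MC2R to adenylyl cyclase, was at 8.02, 7.86 and 8.03 on the WT arrays and at 8.48, 8.35, 8.33 and 8.26 on the KO arrays. All 4 KO arrays exceeded all 3 WT arrays. Its WT mean of 7.97 ± 0.09 (SD, n = 3) stood against 8.35 ± 0.09 for KO (SD, n = 4), and the gene rose by 0.39 on the log2 scale (SE 0.07, 95% interval 0.23 to 0.54) or 1.31-fold, with an adjusted p of 0.0157 by limma. Without WT replicate 2 the adjusted p was 0.0568 and without WT replicate 3 it was 0.0505, and it was 0.111, with a log2 change of 0.32, when the adipocyte marker mean was a covariate. Gnas stands at 0.41 (log2) with an adjusted p of 0.0111 in the authors' deposited table.

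Gnas is an imprinted locus with several starts, and its other products include XL-alpha-s and the neuroendocrine secretory protein NESP55, a granin-like protein of chromaffin granules. The probe set is annotated to the gene as a whole, so the rise cannot be assigned to Gs-alpha. A further probe set is annotated to both Gnas and its antisense transcript Gnasas1 and falls outside the selection. It was at 4.95, 4.70 and 4.64 in WT and at 5.54, 4.95, 4.92 and 5.14 in KO, with overlapping groups (means 4.76 ± 0.16, n = 3, and 5.14 ± 0.28, n = 4). It was not tested as a gene, since it has several symbols.

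Among the other G protein alpha subunits, 3 of 12 rose and 1 fell, where 8.69% of all genes were called and 5.14% were called higher. Gnao1, the alpha subunit of Go, which is abundant in neurons and neuroendocrine cells, rose by 1.04 (SE 0.08, adjusted p = 0.00137 by limma), from 7.62, 7.71 and 7.66 to 8.78, 8.80, 8.71 and 8.49. Gnal, the stimulatory subunit of olfactory neurons and striatum, rose by 0.41 (adjusted p = 0.0123), and Gnaz, a subunit of the inhibitory class found in neurons and platelets, by 0.40 (adjusted p = 0.0294). Gnai1, an inhibitory subunit that opposes adenylyl cyclase, fell by 0.39 (SE 0.09, adjusted p = 0.0379), from 8.28, 8.52 and 8.39 to 7.81, 8.08, 8.10 and 8.02. The groups of Gnai1 did not overlap. Gnai2 and Gnai3 had log2 changes of 0.11 and -0.12 and did not pass the test. Of 13 beta and gamma subunits, 1 was called, a share close to the 8.69% of all genes. This was Gnb3, with a rise of 0.84 (SE 0.16, adjusted p = 0.0194), and Gnb1 had a log2 change of 0.06. The list median was 0.17. The number called depended on the setting. It was 2 of 13 when quantile normalization was applied again and after either centring of the arrays. Among genes at or above the median level it was 4 of 12, where 1174 of 11090 genes were called higher and 1031 lower. All KO arrays were above all WT arrays for 7 of the 13, against 10.3% of all genes, and below them for 1. An unadjusted limma p under 0.05 was found for 7 of the 13, against 5063 of all 22180 genes.

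The catalytic subunits of PKA, which phosphorylate the substrates of the pathway, are Prkaca (C-alpha) and Prkacb (C-beta). Prkaca was at 9.55, 9.76 and 9.79 on the WT arrays and at 9.64, 9.48, 9.47 and 9.31 on the KO arrays. The groups overlapped, since WT replicate 1 was below KO replicate 1, and 3 of 4 KO arrays were below every WT array. The log2 change was -0.23 (SE 0.09, 95% interval -0.44 to -0.01, unadjusted p = 0.0401, adjusted p = 0.192 by limma). A second, dimmer Prkaca probe set was at 5.93, 5.87 and 6.09 in WT and at 5.87, 5.94, 5.54 and 5.67 in KO, with a log2 change of -0.21 (adjusted p = 0.313 in the limma fit of 23521 single probe sets, of which 8.58% were called). Both probe sets of Prkaca thus had a negative estimate that did not pass the test.

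Prkacb was at 8.26, 8.30 and 8.35 on the WT arrays and at 8.55, 8.41, 8.51 and 8.53 on the KO arrays. Every KO array was above every WT array, with KO replicate 2 the closest to WT. The means were 8.30 ± 0.05 (SD, n = 3) and 8.50 ± 0.06 (SD, n = 4), and the log2 change was 0.20 (SE 0.05, 95% interval 0.08 to 0.31) or 1.15-fold. It missed the threshold by a small margin (adjusted p = 0.0533 by limma). It was called in 3 of 17 alternatives, namely when genes below the median level were left out (adjusted p = 0.0332), when quantile normalization was applied again (adjusted p = 0.0284) and without KO replicate 2 (adjusted p = 0.0379), and the highest adjusted p was 0.264.

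**Figure D2:**
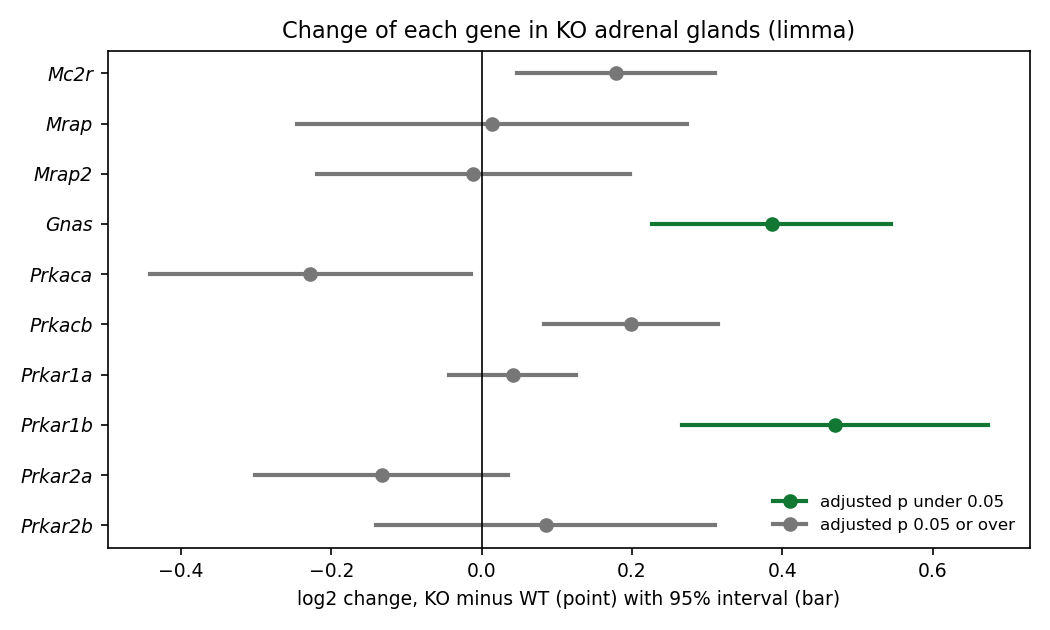
Log2 change of each gene, KO minus WT, with its 95% interval from limma; green marks an adjusted p under 0.05 over all genes. Gnas (0.39) and Prkar1b (0.47) are called, the intervals of Mc2r, Prkacb and Prkaca exclude 0 without a call after adjustment, and the other intervals include 0.

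The regulatory subunits hold the catalytic subunits inactive until cyclic AMP binds, and form type I (Prkar1a, Prkar1b) and type II (Prkar2a, Prkar2b) holoenzymes. Prkar1b (RI-beta), which is known mainly from the nervous system, was at 7.59, 7.32 and 7.36 on the WT arrays and at 7.99, 7.95, 7.88 and 7.74 on the KO arrays. All KO arrays were above all WT arrays, with KO replicate 4 nearest to WT replicate 1. Its WT mean was 7.42 ± 0.14 (SD, n = 3), that of KO 7.89 ± 0.11 (SD, n = 4), and the gene rose by 0.47 on the log2 scale (SE 0.09, 95% interval 0.27 to 0.67) or 1.38-fold, with an adjusted p of 0.0185 by limma. It was not called without WT replicate 2 (adjusted p = 0.0758), WT replicate 3 (0.0844), KO replicate 2 (0.0577) or KO replicate 3 (0.0538), nor with the adipocyte marker mean as a covariate (log2 change 0.39, adjusted p = 0.127). The authors' deposited table gives Prkar1b a log2 change of 0.52 and an adjusted p of 0.00828, and none of the other 8 genes an adjusted p under 0.05.

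Prkar1a (RI-alpha), the widely expressed type I subunit, was at 8.63, 8.63 and 8.69 in WT and at 8.68, 8.68, 8.68 and 8.72 in KO. The groups overlapped, and all 7 values lay close together. The log2 change was 0.04 (SE 0.04, 95% interval -0.04 to 0.13, adjusted p = 0.557 by limma). The interval leaves changes of more than 0.13 in either direction outside it, and its SE is the smallest of the 10 genes.

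Prkar2a (RII-alpha), a widely expressed type II subunit, was at 8.01, 7.98 and 8.21 in WT and at 7.96, 7.98, 7.98 and 7.82 in KO. The log2 change was -0.13 (SE 0.07, 95% interval -0.30 to 0.04, adjusted p = 0.326 by limma). Prkar2b (RII-beta), a type II subunit known from brain, fat and endocrine tissues, was at 9.95, 10.17 and 10.34 in WT and at 10.21, 10.36, 10.19 and 10.19 in KO. The KO arrays lay within the upper part of the WT range or just above it. The log2 change was 0.09 (SE 0.10, 95% interval -0.14 to 0.31, adjusted p = 0.659 by limma).

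Whether isoforms moved unequally was asked with the log2 difference of 2 genes within an array, in which any scaling of the array cancels. Of 8 such pairs, 4 had KO and WT arrays that did not overlap. The pairs are not independent, since Prkar1a enters 4 of the 8 and Prkar2a 2 of the 4 that separated. The share of all gene pairs that separate was not computed, and single genes separated in 20.2% of cases. With 3 against 4 arrays there are 35 arrangements, so the two-sided exact permutation test cannot give a p below 0.0571, and no pair could pass. The 95% intervals of the pairs come from an ordinary linear model, not from the permutations, and are not adjusted over the 8 pairs. Prkacb minus Prkaca was -1.30, -1.46 and -1.44 in WT and -1.08, -1.07, -0.96 and -0.78 in KO. The difference was less negative on every KO array than on any WT array, by 0.43 between the means (95% interval 0.18 to 0.67, exact permutation p = 0.0571, adjusted p = 0.114 over the 8 pairs). Prkar1b minus Prkar1a was -1.04, -1.31 and -1.33 in WT and -0.69, -0.73, -0.80 and -0.97 in KO, a shift of 0.43 (95% interval 0.15 to 0.71, same exact p). Prkar2b minus Prkar2a shifted by 0.22 (95% interval 0.01 to 0.43) and Prkar2a minus Prkar1a by -0.17 (95% interval -0.36 to 0.01), with the same exact p and no overlap.

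The 4 other pairs overlapped between the groups. Prkaca minus Prkar1a, a catalytic against a type I regulatory subunit, differed by -0.27 (95% interval -0.53 to -0.003, exact permutation p = 0.114). Prkar2b minus Prkar1a, a type II against a type I subunit, differed by 0.04 (95% interval -0.21 to 0.30, exact permutation p = 0.743). Mrap minus Mc2r differed by -0.16 (95% interval -0.49 to 0.16, exact permutation p = 0.229), and Mrap2 minus Mrap by -0.03 (95% interval -0.51 to 0.46, exact permutation p = 1).

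**Figure D3:**
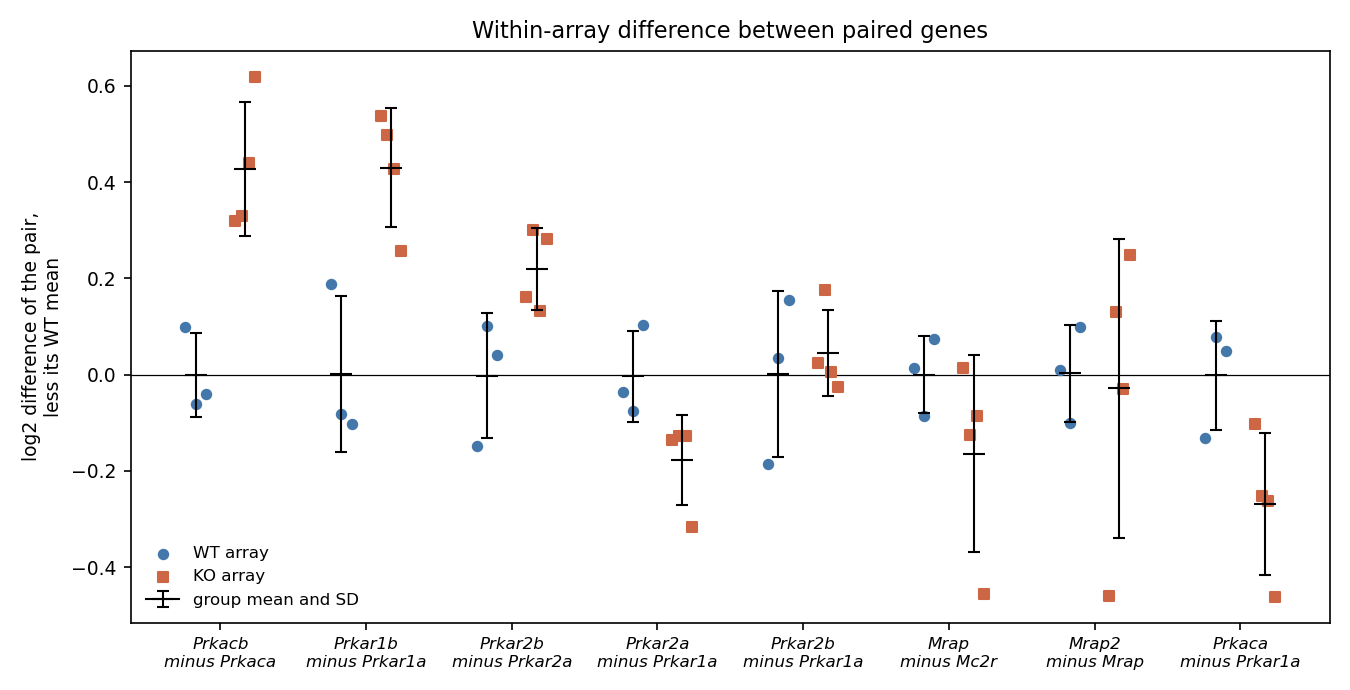
Within-array log2 difference of 8 pairs of genes, less the WT mean of the pair, on WT arrays (circles) and KO arrays (squares) with group mean and SD. The KO arrays lie wholly above WT for Prkacb minus Prkaca, Prkar1b minus Prkar1a and Prkar2b minus Prkar2a, wholly below for Prkar2a minus Prkar1a, and overlap WT for the other pairs.

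A-kinase anchoring proteins (AKAPs) bind the regulatory subunits and place the kinase at membranes, organelles and cytoskeleton. Of 29 measured genes on a list of anchors and inhibitors, 6 rose and 1 fell, with a list median of 0.02, where 8.69% of all genes were called. Akap6, an anchor of the nuclear envelope in muscle and neurons, rose by 1.12 (SE 0.16, adjusted p = 0.00711 by limma), from 4.93, 5.42 and 5.15 to 6.16, 6.65, 6.18 and 6.18. Map2, a microtubule protein of neuronal dendrites that binds type II PKA, rose by 0.82 (adjusted p = 0.00394). Pcdh7, which is on the list but is a protocadherin known for cell adhesion, rose by 1.11 (adjusted p = 0.0379). Akap12, a scaffold beneath the plasma membrane, rose by 0.56 (adjusted p = 0.0298), Akap5, an anchor of synapses, by 0.25 (adjusted p = 0.0172) and Akap11 by 0.22 (adjusted p = 0.0409).

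Akap1, the anchor that tethers PKA to the outer mitochondrial membrane, fell by 0.49 (SE 0.10, adjusted p = 0.0232 by limma), from 8.54, 8.58 and 8.63 to 7.87, 8.23, 8.02 and 8.24. All its KO arrays were below all WT arrays. The PKA inhibitor peptides Pkia and Pkib, which block free catalytic subunits, had log2 changes of 0.30 and 0.06 and did not pass the test.

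Downstream of the kinase, none of 11 measured members of the CREB family, their co-activators and the salt-inducible kinases was called by limma, and 3 had an unadjusted p under 0.05, as had 5063 of all 22180 genes. Creb1, the transcription factor that PKA phosphorylates, was at a log2 change of -0.13 (adjusted p = 0.239), and its relative Crem at 0.20 (adjusted p = 0.297). Sik1, a kinase that is induced by ACTH and restrains CREB co-activators, was at 8.08, 7.09 and 7.12 in WT and at 8.59, 8.08, 8.71 and 8.08 in KO (log2 change 0.93, adjusted p = 0.0990). Its WT replicate 1 lay with the lower KO arrays and well above the other WT arrays, so the groups overlapped.

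Of 14 measured cyclic AMP effectors outside PKA, 1 was called, where 8.69% of all genes were, a share that also stands beside the lists that follow. This was Cnga3, a cyclic nucleotide-gated channel subunit of cone photoreceptors, which rose by 0.82 (SE 0.14, adjusted p = 0.0153 by limma). The exchange factor Rapgef3 (EPAC1) had a log2 change of 0.04. Among 13 regulators of receptor signalling, the receptor kinase Grk6 fell by 0.48 (SE 0.06, adjusted p = 0.00508), whereas the pericyte-enriched Rgs5 rose by 0.88 (adjusted p = 0.0179) and the receptor kinase Grk3 by 0.55 (adjusted p = 0.0458). Among 6 kinases related to the catalytic subunit or sharing its name, the cyclic GMP-dependent kinase Prkg2 rose by 0.85 (adjusted p = 0.0190) and the protein kinase D gene Prkd1 fell by 0.27 (adjusted p = 0.0186). Over the 8 pathway lists together, 102 of 109 genes were measured, of which 14 rose and 4 fell. This was 17.6% against 8.69% of all genes, and the median log2 change was 0.03. The 8.69% takes in genes of low value. Of the 11090 genes at or above the median level, fitted alone, 1174 were called higher and 1031 lower. In that fit 3 of 10 G protein alpha subunits, 4 of 12 beta and gamma subunits and 6 of 21 anchors and inhibitors were called. So were 1 of 5 other cyclic AMP effectors, 0 of 11 CREB family genes, 3 of 12 receptor regulators and 2 of 6 related kinases. The share of the lists together was not computed at that level, so no excess over genes of like level is shown.

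**Figure D4:**
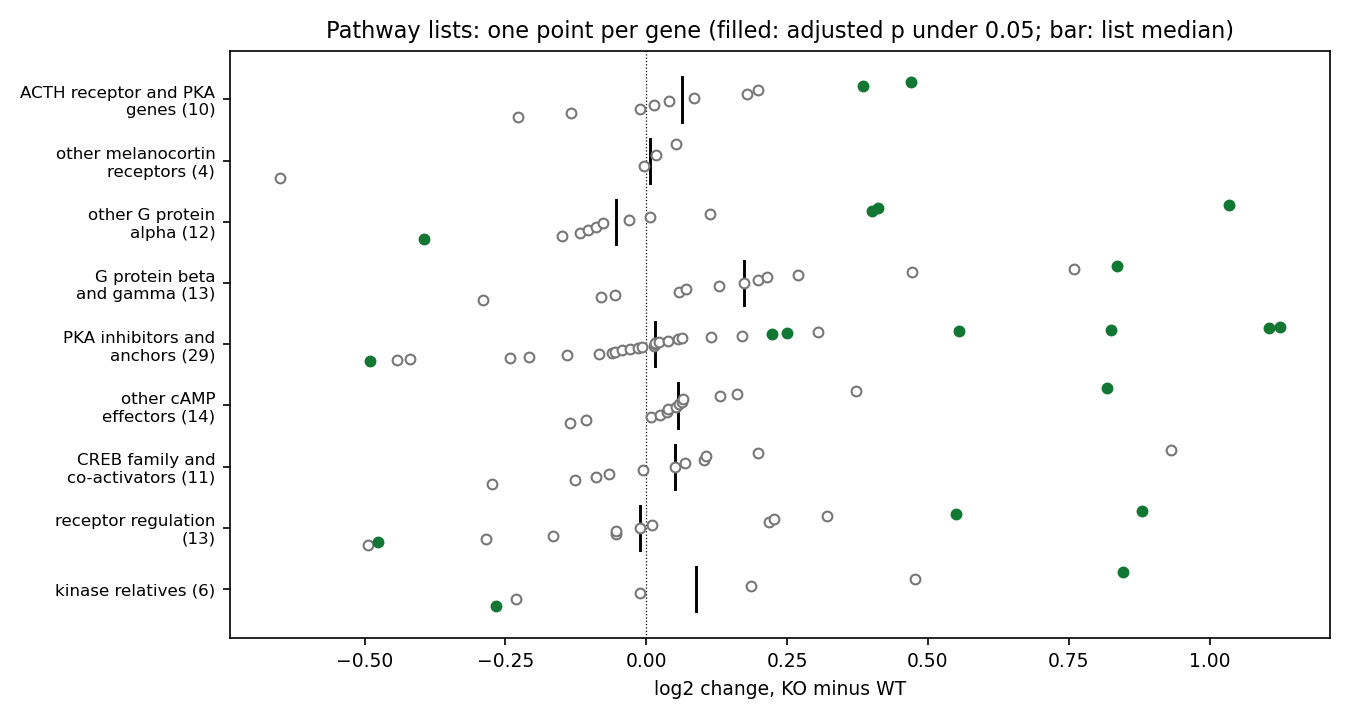
Log2 change, KO minus WT, of the 10 genes and of the measured genes of 8 pathway lists, 1 point a gene; filled points have an adjusted p under 0.05 and bars mark list medians. Filled points lie mostly to the right, with Gnao1 (1.04), Akap6 (1.12) and Pcdh7 (1.11) farthest, and Akap1 (-0.49), Grk6 (-0.48), Gnai1 (-0.39) and Prkd1 (-0.27) to the left.

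Markers of other cell types moved with the groups on these arrays. Of 14 measured chromaffin markers, 12 rose and none fell, where 8.69% of all genes were called and 5.14% were called higher. All 14 had KO arrays above WT arrays, as had 10.3% of all genes. The mean of the 14 was 9.16, 9.18 and 9.08 on the WT arrays and 10.11, 10.10, 10.03 and 9.92 on the KO arrays. The 12 called markers are Ddc, Th, Dbh and Pnmt of catecholamine synthesis, the vesicle transporters Slc18a1 and Slc18a2, the granule proteins Chga, Chgb, Scg2 and Cyb561, the vesicle sensor Syt1 and the neuropeptide Npy, with rises from 0.49 for Chgb to 1.27 for Pnmt. Among the KO arrays, replicate 1 had the highest and replicate 4 the lowest value of the chromaffin mean, of Prkar1b and of Gnas. The order was not shared among the WT arrays. There replicate 2 had the highest chromaffin mean (9.18) but the lowest Gnas (7.86) and the lowest Prkar1b (7.32). The share of chromaffin RNA in the rises of Gnas, Prkar1b, Gnao1 and the neuronal anchors was not tested, and over these 7 arrays the chromaffin mean and the genotype cannot be told apart, since the groups do not overlap in it.

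Of 9 measured markers of the steroidogenic cortex, in which Mc2r and Mrap act, Scarb1, the receptor that takes up cholesterol esters, rose by 0.34 (adjusted p = 0.0390 by limma) and no marker was called lower. All KO arrays were above all WT arrays for 2 of the 9 and below them for 3, where 20.2% of all genes separated in either direction. The 2 were Scarb1 and Fdx1, and Fdx1 was nearest to a further call (log2 change 0.26, adjusted p = 0.0592 by limma). The 3 were Hsd3b1, Star and Cyp21a1 of steroid synthesis, with log2 changes of -0.20, -0.16 and -0.10 that did not pass the test. Nr5a1 and Cyp11a1 had log2 changes of 0.44 and 0.17 that did not pass it either, and the list median was 0.07. An unadjusted p under 0.05 was found for 6 of the 9, against 5063 of all 22180 genes. The cortical mean ranged from 11.06 to 11.18 on the WT arrays and from 11.15 to 11.24 on the KO arrays, and overlapped between the groups. The inner zone of the cortex in young females, the X-zone, had all of its 4 markers called lower. Their log2 changes were -0.62 for Pik3c2g, -1.02 for Thrb, -4.00 for Cyp2f2 and -4.07 for Akr1c18. The share of all genes called was 8.69%, to be set beside this list and the other lists of this paragraph. Of 8 capsule and stroma markers, Tcf21, Lum, Pdgfra, Thy1, Gli1 and Col1a2 rose, by 0.68 for Thy1 and by more for the others. None of 10 adipocyte markers was called by limma and 2 had an unadjusted p under 0.05, against 5063 of 22180, with a mean of 8.01 to 9.19 in WT and of 6.83 to 8.42 in KO. Of 6 endothelial markers Tek and Plvap fell. The others were not called, with log2 changes of -0.26 for Kdr, 0.28 for Cdh5, 0.02 for Pecam1 and -0.01 for Emcn. No macrophage or Schwann cell marker was called. All KO arrays were below all WT arrays for 3 of 6 macrophage markers, as for 2187 of all 22180 genes, and above them for 0. Among these markers Mrc1 was nearest to a call, at -0.57 (adjusted p = 0.0543 by limma). With the adipocyte mean as a covariate none of the 10 genes was called by limma, with log2 changes of 0.15 for Mc2r (adjusted p = 0.402) and 0.17 for Prkacb (adjusted p = 0.264). Calls also fell over all genes in that fit, to 509 higher and 307 lower, against 1140 and 788 without the covariate. Gnas kept a log2 change of 0.32 and Prkar1b of 0.39. The part of the other cell types in the values of the 10 genes was not tested.

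**Figure D5:**
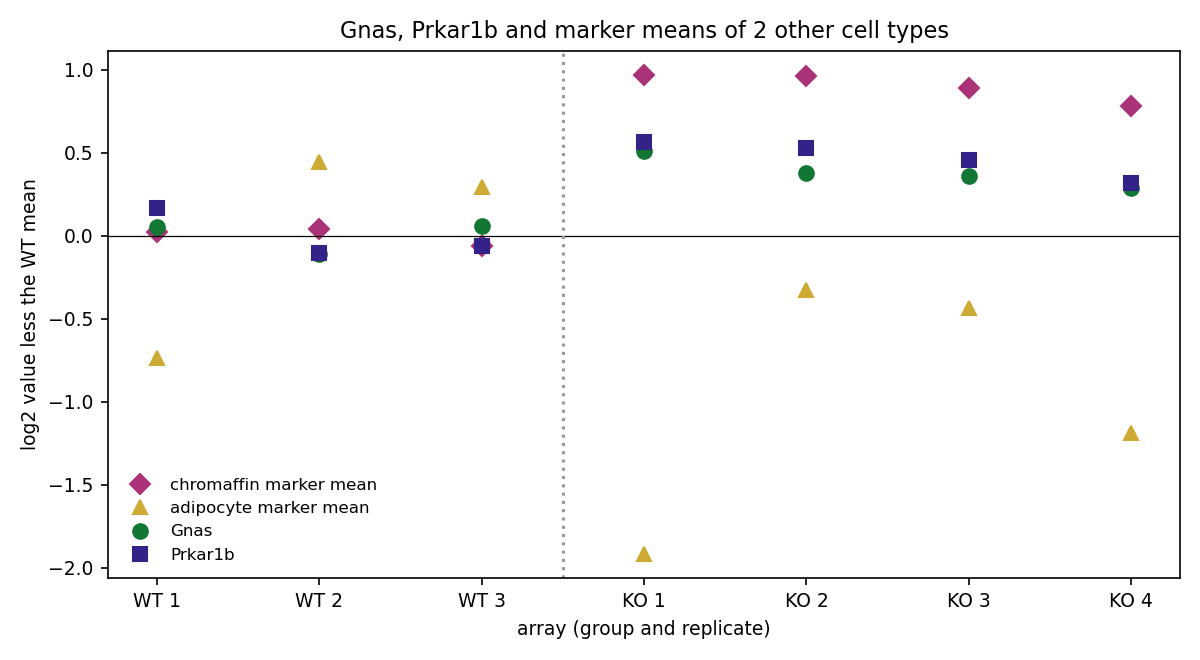
Gnas, Prkar1b and the means of 14 chromaffin and 10 adipocyte markers on each array, as log2 value less the WT mean. Gnas, Prkar1b and the chromaffin mean are all higher on the 4 KO arrays and highest on KO replicate 1, where the adipocyte mean is lowest.

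The genes whose 7 values, less the WT mean, were nearest to those of the called genes were taken from 10415 candidates at or above the median level, by the root-mean-square difference in log2 units. For Gnas these were Atcay (0.04), Cystm1 (0.05) and Iglon5 (0.05), and for Prkar1b they were Zfp612 (0.05), Pnck (0.06) and Mras (0.06). By that choice each of the 6 genes was also higher in KO, with log2 changes from 0.37 for Iglon5 to 0.51 for Mras.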

How the data were processed

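The 7 samples, 3 WT and 4 KO, were grouped by their titles, which call the replicates biological. The deposited value table holds log2 values, which the submitters' processing notes credit to RMA, and no source used here names its version or a genome build. The authors' deposited comparison gives, per symbol, a log2 fold change with a p-value and its adjusted form, from a test no source used here names. Symbols came from the platform annotation (23521 probe sets with 1 symbol, 1820 with several, 16004 unnamed here). The brightest probe set was kept for each of 1082 genes with more than 1, without a filter on low values.

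KO was compared with WT in R 4.3.3 with limma 3.58.1 (lmFit, eBayes), two-sided, with Benjamini-Hochberg adjustment, after a check on simulated data. The number of arrays limits the precision (5 residual degrees of freedom, median SE 0.07). Named were the 10 genes, Ezh2, genes called in the 16 lists and their defining members, and the 3 nearest patterns to each called gene. The genes and lists were chosen with earlier results of these data known. Alternatives covered low values, probe sets, variance prior, scaling, array weights, the replicate number, an adipocyte covariate and each array left out. Sequences come from the RefSeq table on GRCm38.p6.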

Additional observations from a re-analysis of the deposited data

Results flagged for a closer look

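Among 19 sets of 4 KO values examined (the 10 genes, the second Prkaca probe set and the 8 pairs), 4 held a sample whose gap to the nearest other sample was unusually large against the range of the group. Chance alone would give about 1 such set in 20. For Prkar1a the gap of KO replicate 4 made up 0.960 of the range, with values of 8.68, 8.68, 8.68 and 8.72. For Prkar2a the gap of KO replicate 4, at 7.82, made up 0.892 of the range, and for Prkar2a minus Prkar1a, which holds the same values, that of KO replicate 4 made up 0.947. For Prkar2b KO replicate 2, at 10.36 against 10.19 to 10.21, had a gap of 0.910 of the range.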

How the results depend on the processing

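Gnas was called in 13 of 17 alternatives (log2 change 0.32 to 0.42, adjusted p 0.00863 to 0.111) and Prkar1b in 12 of 17 (0.39 to 0.55, adjusted p 0.00998 to 0.127), and neither changed direction. Leaving out each array in turn gave 594 to 945 higher genes, 322 to 654 lower genes and 0 to 2 called genes of the 10. With the adipocyte mean as a covariate there were 509 higher and 307 lower genes and 0 of the 10. Centring arrays on the median of the genes tested, chosen after seeing the data, gave 1005 higher and 1329 lower genes, with 43.1% of calls higher against 59.1% as reported, and the called genes of the 10 were Gnas and Prkar1b. Centring on the median of all probe sets gave 63.6%. Same-numbered arrays had correlated deviations of 0.07, -0.08 and -0.11, so the numbers are not taken as pairs, and not every array correlated best with its own number. With the replicate number as a block, 523 genes were higher and 286 lower, and 1 of the 10 was called, Prkar1b (0.52, adjusted p = 0.0440), while Gnas was at 0.42 (adjusted p = 0.0539).

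Values near 0 changed sign. Mrap2 was at 0.00303 when quantile normalization was applied again, 0.00636 after centring arrays by their own medians, 0.0268 with array weights, 0.103 with the adipocyte covariate and -0.0677 to 0.0526 with an array left out. Mrap was at -0.0140 with array weights, -0.0402 with the adipocyte covariate, -0.0368 with arrays centred on the median of the genes tested and -0.0659 to 0.106 with an array left out. Prkar1a was at -0.0100 under that centring, and Prkar2b at -0.0165 to 0.179 with an array left out. Under the same omissions Prkar2b minus Prkar1a was at -0.0475 to 0.12 and Mrap2 minus Mrap at -0.12 to 0.12. The cause was not tested. No detection calls were used, so no level was set against background.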
